A study of Mus musculus with 18 samples.

Results

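The cytochrome P450 (*Cyp*) genes described here encode heme enzymes that oxidise fatty acids, eicosanoids, sterols, steroids and drugs. Members were taken as protein-coding genes with a symbol of the form *Cyp*, number, letter, number that had at least 10 reads in at least 3 of the 18 kidneys, without *Cyp24a1*, *Cyp27b1*, *Cyp26a1*, *Cyp26b1* and *Cyp26c1*. This gave 41 of the 89 P450 genes that met the name rule, out of 45706 genes counted. The members were thus selected on their read counts, so that their being detected is a description only. Just inside the limit lay *Cyp2t4*, with 1 to 15 reads per kidney, and *Cyp1a1*, with 0 to 20 reads. Just outside lay *Cyp4f15*, with 0 to 13 reads, and *Cyp2c69*, with 1 to 18 reads.

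In a P450 reaction the enzyme inserts an oxygen atom into its substrate with electrons that come, in the endoplasmic reticulum, from P450 oxidoreductase (*Por*) and cytochrome b5, and in mitochondria from ferredoxin (*Fdx1*). Families 1 to 3 are known above all for drugs and foreign compounds, although several family 2 enzymes convert arachidonic acid to epoxides, whereas family 4 enzymes hydroxylate the far end of fatty acids and eicosanoids. In the kidney the proximal tubule is the main site of P450 enzymes, and several *Cyp4a* genes are known targets of the fatty acid receptor PPARα (*Ppara*).

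RNA was measured in whole kidneys of male C57BL/6 mice aged 10 to 12 weeks, taken 12 h after 22.5 min of bilateral ischemia/reperfusion (I/R) injury. The 2 cohorts were *Cxcl12* fl/fl and *Myc* fl/fl mice, in which KO animals carried Pax8rtTA together with TetOCre (*Cxcl12* KO, n = 5; *Myc* KO, n = 5) and control littermates carried the floxed allele and Pax8rtTA without TetOCre (*Cxcl12* control, n = 3; *Myc* control, n = 5). All animals, controls included, drank doxycycline for 14 days, followed by 1 week of wash-out, and the Pax8 promoter limits the deletion to tubular epithelium, so that other cells of the organ kept the targeted gene. Every kidney was injured, and uninjured kidneys were not analysed here. Since RNA came from the whole organ, fewer cells of a type and less RNA per cell cannot be told apart.

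Each kidney had 12918220 to 29749500 reads on genes. In 6 of the kidneys under 5% of reads were unmapped and more reads were sequenced (*Cxcl12* KO 2, *Cxcl12* control 0, *Myc* KO 2, *Myc* control 2), and the other 12 are called the shallower kidneys here. The labels do not say what this split is, and in the *Cxcl12* cohort it lies within the KO group alone. *Cxcl12* was at 26.1 to 40.7 CPM (the usual count scaled to library size, here by the TMM method) in its KO kidneys and at 45.2 to 60.4 in controls, a log2 difference of -0.73 (SE 0.15, adjusted p = 0.0942). *Myc* fell by 1.61 on the log2 scale in its KO kidneys (SE 0.12, adjusted p = 8.82e-05). All p-values across genes come from edgeR's quasi-likelihood test with Benjamini-Hochberg adjustment. The test sets a difference between groups against the spread between kidneys within groups.

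Expression of the P450 genes was dominated by a few members. Per kilobase of exon, *Cyp4b1*, which hydroxylates fatty acids and activates some foreign compounds, was the highest with a mean of 754 CPM per kb over the 18 kidneys. It was followed by *Cyp2e1*, the enzyme that oxidises ethanol and acetone, at 369 and by *Cyp2j5*, a renal arachidonic acid epoxygenase, at 247. These 3 genes made up 71.0% of the summed level of the 41 members. The fatty acid hydroxylases *Cyp4a10* (90.6 CPM per kb), *Cyp4a31* (70.2) and *Cyp4a14* (54.0), with the coumarin hydroxylase *Cyp2a5* (58.0) and the steroid hydroxylase *Cyp2a4* (50.2), brought the share to 87.7% for 8 genes. Ranges over the 18 kidneys overlapped between all neighbours in this order of 8, so that the order of *Cyp4a31*, *Cyp2a5*, *Cyp4a14* and *Cyp2a4* in particular differed from kidney to kidney. Reads that map to several places are not counted, which lowers the levels and shares of near copies. Of the 31-base windows of their transcripts, *Cyp2a4* shared 58.9%, *Cyp2a5* 54.6%, *Cyp4a10* 44.9% and *Cyp4a31* 32.0% with other genes, against 1.99% for *Cyp4a14*. At the other end, *Cyp3a11*, a main drug-oxidising enzyme of liver, had a mean of 0.0752 CPM per kb.

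By family, the 11 members of family 4 summed to 989 CPM per kb, 51.2% of the member total, and the 21 members of family 2 to 885 CPM per kb, 45.9%. The 4 sterol and bile acid hydroxylases (*Cyp27a1*, *Cyp7b1*, *Cyp39a1* and *Cyp46a1*) held 1.19%, the single family 20 enzyme 0.844%, the 2 family 1 members 0.795% and the 2 family 3 members 0.0691%. The member total was 1895 ± 178 CPM per kb (SD, n = 5) in *Cxcl12* KO and 2028 ± 227 (n = 3) in *Cxcl12* control kidneys, and 1879.6 ± 477 (n = 5) in *Myc* KO and 1958 ± 284 (n = 5) in *Myc* control kidneys, with overlapping ranges in both cohorts. Of all reads on genes, the members took 0.32% to 0.582%.

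**Figure D1:**
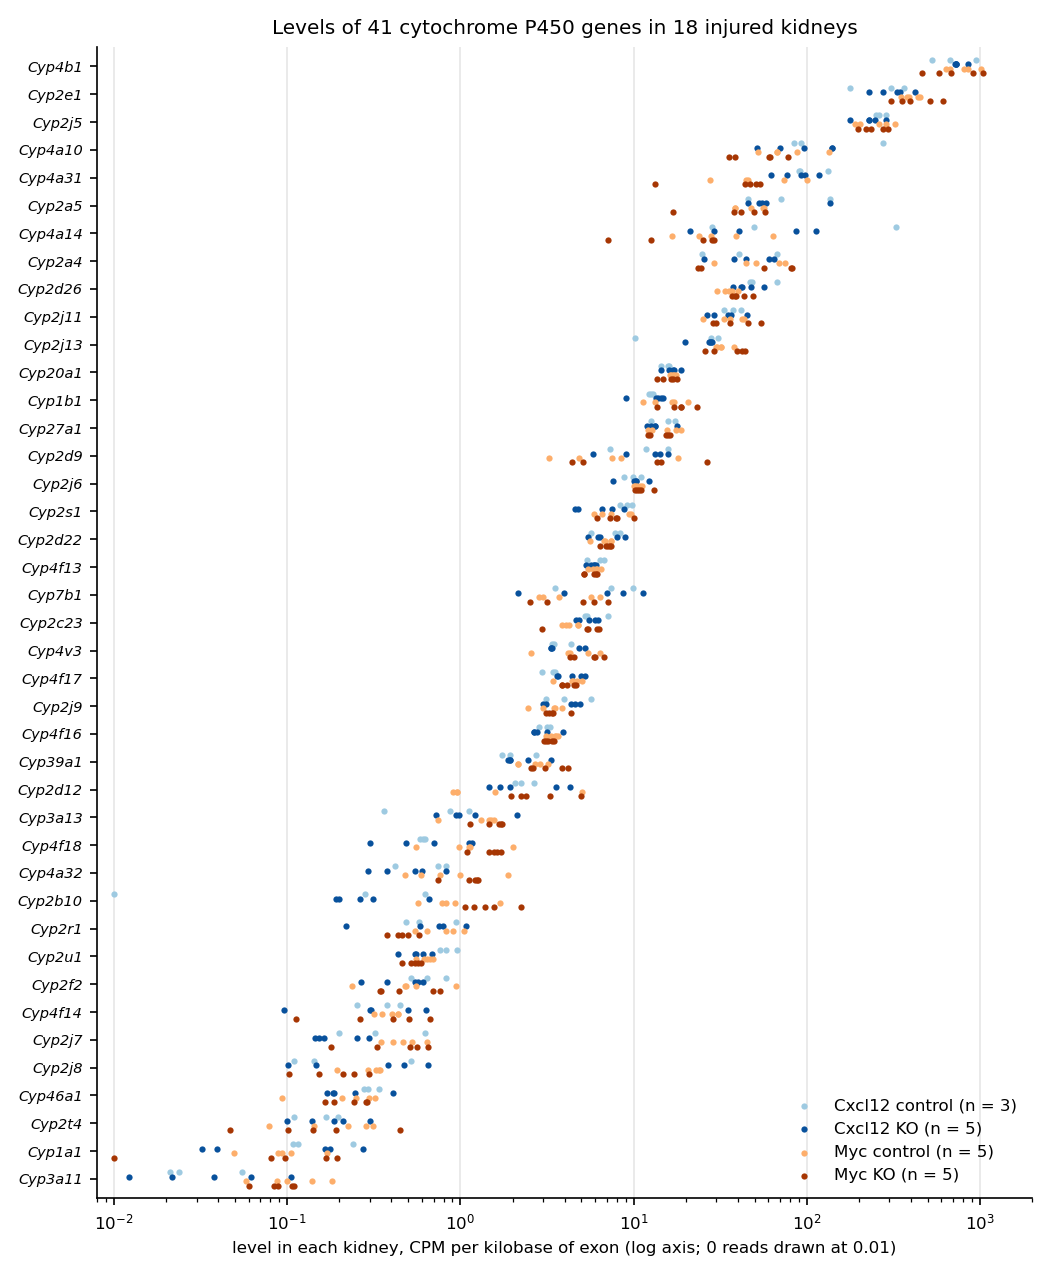
Level of each of the 41 P450 genes in every kidney, in CPM per kilobase of exon on a log axis, with 1 point per kidney coloured by the 4 groups (a kidney with 0 reads is drawn at 0.01). *Cyp4b1* lies at the top at a mean of 754 and *Cyp3a11* at the bottom at 0.0752, and the points of the 4 groups overlap along most of the order.

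Several P450 genes known from other organs lay below the read limit, a rule that itself fixes their low counts. Of the 48 genes below the read limit, 14 had no read in any kidney and 46 had 10 or fewer reads in every kidney. The adrenal steroid enzymes *Cyp11a1* (at most 2 reads in a kidney), *Cyp11b1* (2), *Cyp11b2* (1) and *Cyp21a1* (1) were among them, as were *Cyp17a1* (8 reads), the androgen-to-estrogen enzyme *Cyp19a1* (0), and the hepatic bile acid enzymes *Cyp7a1* (0) and *Cyp8b1* (6). The liver enzymes *Cyp1a2* (1 read), *Cyp2c29* (2) and *Cyp3a25* (1) were equally low. Of 5 adrenal cortex markers, *Nr5a1* had 0 to 1 reads, *Hsd3b1* 0 to 2 and *Mc2r* 2 to 29, whereas *Star* had 31 to 173 and *Akr1b7* 65 to 666. The 5 summed to 14.3 to 18.5 CPM in *Cxcl12* KO and 8.66 to 10.9 in control kidneys, without overlap, and to 15.8 to 30.9 in *Myc* KO and 7.71 to 24.4 in control kidneys. Most of these reads came from *Akr1b7* and *Star*. Of single genes tested in the *Cxcl12* cohort, 4.75% lay above all controls in KO kidneys, and no such share was computed for sums. *Star* and *Akr1b7*, the 2 tested, had higher estimates in both cohorts (smallest adjusted p = 0.0664 and 0.229). Of 4 adrenal medulla markers *Th* had 0 reads in all kidneys and none was tested. Of 6 liver markers *Ahsg* had 0 to 3 reads, while the others were detected in every kidney, from *Apoa1* with 4 to 41 reads to *Apob* with 1012 to 8223. They summed to 286 to 454 CPM in *Cxcl12* KO and 304 to 413 in control kidneys, and to 155 to 421 in *Myc* KO and 112 to 362 in control kidneys. The part of adrenal or liver RNA in the P450 values was not tested.

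How far a gene varied between kidneys differed widely among members. *Cyp4a14* spanned 46.4-fold over the 18 kidneys, *Cyp4a31* 10.05-fold, *Cyp2d9*, a testosterone hydroxylase, 8.17-fold and *Cyp2a5* 8.14-fold. At the other extreme were *Cyp4f13*, of the leukotriene-hydroxylating *Cyp4f* group, with 1.31-fold and *Cyp20a1*, an enzyme with no settled substrate, with 1.37-fold. Among the most abundant members, *Cyp2j5* spanned 1.82-fold, *Cyp4b1* 2.27-fold and *Cyp2e1* 3.42-fold. The median SD of log2 CPM within groups was 0.359 over the members.

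The comparison of KO with control kidneys asked whether loss of *Cxcl12* or *Myc* from the tubule moved P450 expression after injury. No member passed an adjusted p of 0.05 in either cohort by edgeR, DESeq2 or limma voom. In the *Cxcl12* cohort 0 of 37 members tested were called, against 0% of all 15154 genes, and at an unadjusted p under 0.05 the count was 3 members (8.11%) against 13% of all genes. In the *Myc* cohort 0 of 37 were called, against 1.65% of 14936 genes, and 4 members (10.8%) had an unadjusted p under 0.05 against 21.9% of all genes. Members spread more within groups than all genes did, so that these shares do not show a smaller response. The smallest adjusted p of a member was 0.245 for *Cxcl12* and 0.120 for *Myc* KO kidneys. *Cyp2t4*, *Cyp1a1* and *Cyp3a11* had too few reads for the test in both cohorts, *Cyp2j7* in the *Cxcl12* cohort and *Cyp2j8* in the *Myc* cohort.

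Estimates lay on both sides of 0. In the *Cxcl12* cohort 19 members had a lower and 18 a higher estimate in KO kidneys (median log2 difference -0.04, against 0.000833 for all genes). The *Myc* cohort gave 16 lower and 21 higher (median 0.04, against -0.000832). Among the shallower kidneys alone, 25 members had lower and 11 higher estimates in *Cxcl12* KO kidneys (median -0.19), and 11 lower and 26 higher in *Myc* KO kidneys (median 0.10). The median absolute log2 difference was 0.146 and 0.141, beside 0.145 and 0.166 for all genes. All 5 *Cxcl12* KO kidneys lay above all controls for 1 member, *Cyp4f17* (4.75% of all genes did so), and below all controls for 1 member, *Cyp2u1* (4.78% of all genes). No member separated the *Myc* groups, whereas 1.57% of all genes lay above and 4.69% below in this way.

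**Figure D2:**
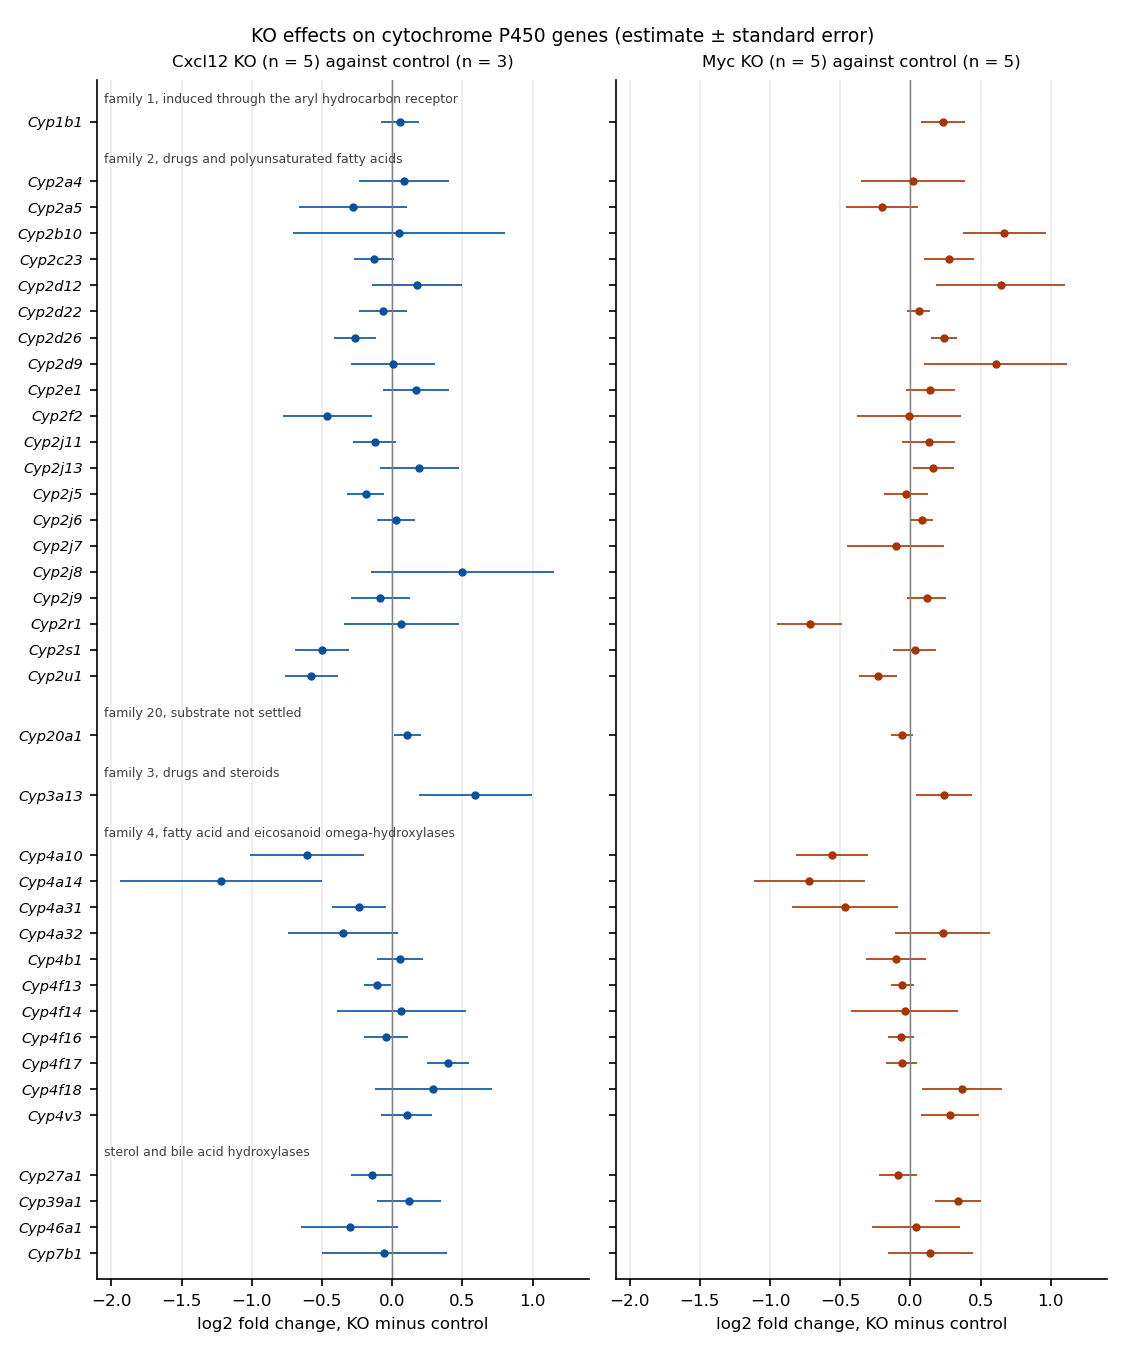
Log2 difference of KO minus control for the P450 genes tested in each cohort, ordered by role, with points for the estimate and bars for its standard error, the *Cxcl12* cohort beside the *Myc* cohort. Many estimates lie close to 0, the widest bar among the abundant genes belongs to *Cyp4a14* in the *Cxcl12* cohort (-1.22, SE 0.72), and no member passed the adjusted threshold.

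Among the family 4 hydroxylases, *Cyp4a14* and *Cyp4a10* had the lowest estimates in both cohorts. Gene positions are given on GRCm38, and values in the order of replicate numbers, which only name kidneys. *Cyp4a10* (ENSMUSG00000066072, chromosome 4, 115518264 to 115533649), an inducible fatty acid ω-hydroxylase, had 579.9, 196 and 179 CPM in the *Cxcl12* controls and 294, 204, 108, 294 and 148 in the KO kidneys. *Myc* controls had 283, 143, 141, 185 and 109.8 CPM and *Myc* KO kidneys 129, 164, 81.5, 74.9 and 128. The highest value of all 18 kidneys was *Cxcl12* control 1, and the groups overlapped in both cohorts, although all 5 KO kidneys lay below the mean of their controls in each. The log2 difference was -0.61 (SE 0.40, adjusted p = 0.551) in the *Cxcl12* cohort and -0.56 (SE 0.26, unadjusted p = 0.0499, adjusted p = 0.228) in the *Myc* cohort.

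*Cyp4a14* (ENSMUSG00000028715, chromosome 4, 115486200 to 115496142), a close relative that is also induced through PPARα, had 854, 129 and 74.0 CPM in *Cxcl12* controls and 295, 106, 55.3, 226 and 75.9 in KO kidneys. *Myc* controls had 167, 43.3, 72.4, 101 and 61.9 CPM and *Myc* KO kidneys 65.5, 75.7, 32.8, 18.4 and 74.0. Again *Cxcl12* control 1 was highest by far, and the groups overlapped. The log2 difference was -1.22 (SE 0.72, adjusted p = 0.497) and -0.72 (SE 0.40, adjusted p = 0.306), respectively. Without *Myc* control 1 the *Myc* estimates were -0.32 for *Cyp4a10* and -0.38 for *Cyp4a14*, and with the shallower kidneys alone -0.23 (adjusted p = 0.639) and -0.35 (adjusted p = 0.680). Without *Cxcl12* control 1 the *Cxcl12* estimates turned to 0.16 for *Cyp4a10* and 0.57 for *Cyp4a14*, so that their direction in this cohort rested on that kidney. The same control kidney had the lowest *Cyp2e1* of all 18, at 386 CPM, and the lowest *Cyp2j13*, a *Cyp2j5* relative, at 47.6 CPM.

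*Cyp4a31* (ENSMUSG00000028712, chromosome 4, 115563649 to 115579015) had 224 ± 52.4 CPM (SD, n = 5) in *Cxcl12* KO and 263 ± 60.8 (n = 3) in control kidneys, and 105 ± 41.3 (n = 5) in *Myc* KO and 147 ± 72.3 (n = 5) in control kidneys. The differences were -0.24 (SE 0.19, adjusted p = 0.621) and -0.47 (SE 0.37, adjusted p = 0.485). They were -0.03 without *Cxcl12* control 1, -0.24 without *Myc* KO 4 and -0.18 without *Myc* control 4, and -0.44 and -0.76 among the shallower kidneys. *Cyp4a32*, the rare copy of the group, had 0.448 to 2.91 CPM. The 4 *Cyp4a* members had a median log2 difference of -0.48 in the *Cxcl12* cohort, where all 4 estimates were below 0. In the *Myc* cohort it was -0.51, and 3 were below 0. Without *Cxcl12* control 1 the *Cxcl12* estimates were 0.16 for *Cyp4a10*, 0.57 for *Cyp4a14* and -0.03 for *Cyp4a31*, so that this summary rests largely on that kidney. *Cyp4a12a*, which does not meet the name rule, is not in it and is given below. These genes share sequence to unequal extents, and reads that map to several places are not in the counts. Of all 31-base windows of its transcripts, *Cyp4a32* shared 62.8% with other genes, *Cyp4a10* 44.9%, *Cyp4a31* 32.0% and *Cyp4a14* 1.99%. Among 16 other genes known to answer to PPARα, 10 had lower estimates in *Cxcl12* KO kidneys and 6 higher (median -0.11), and 14 of 15 tested were lower in *Myc* KO kidneys (median -0.23). None of them passed the adjusted threshold, with a smallest adjusted p of 0.132 and 0.0820.

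*Cyp4b1* (ENSMUSG00000028713, chromosome 4, 115624725 to 115647723) had 1634, 1621, 1636, 1632 and 1927 CPM in *Cxcl12* KO and 1197, 1519.7 and 2149 in control kidneys, followed in the *Myc* cohort by 2366, 2046, 1528, 1312 and 1040.4 in KO and 1822, 1929.8, 1523, 2298 and 1444 in control kidneys. The controls of the first cohort and the KO kidneys of the second spread widest, and all groups overlapped. Its log2 difference was 0.06 (SE 0.17, adjusted p = 0.914) and -0.10 (SE 0.21, adjusted p = 0.809).

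*Cyp4f17* (ENSMUSG00000091586, chromosome 17, 32506050 to 32530143), of the *Cyp4f* group, was the member that lay above all controls in *Cxcl12* KO kidneys. The 5 KO kidneys had 14.04, 11.7, 11.5, 15.8 and 16.7 CPM and the 3 controls 10.98, 9.52 and 11.2, so that the lowest KO kidney stood just over the highest control. The log2 difference was 0.40 (SE 0.15, unadjusted p = 0.0234, adjusted p = 0.315), and it lay between 0.23 and 0.48 over 17 alternatives. *Myc* KO kidneys had 13.5 ± 1.15 CPM (SD, n = 5) and controls 14.2 ± 1.94 (n = 5), a difference of -0.06 (SE 0.11, adjusted p = 0.778). Its neighbours *Cyp4f13*, *Cyp4f14* and *Cyp4f16* had differences of -0.11, 0.07 and -0.04 in the *Cxcl12* cohort. *Cyp4f18*, the leukotriene B hydroxylase of neutrophils, had 0.29 (SE 0.42, adjusted p = 0.798) in *Cxcl12* KO and 0.37 (SE 0.29, adjusted p = 0.471) in *Myc* KO kidneys.

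In family 2, *Cyp2e1* (ENSMUSG00000025479, chromosome 7, 140763739 to 140774987) had 742, 592, 714, 496 and 905 CPM in *Cxcl12* KO and 386, 658 and 791 in control kidneys. *Myc* KO kidneys had 1321, 1116, 858, 761 and 659 CPM and their controls 945, 971, 820.1, 842 and 752. Most *Myc* cohort kidneys stood above most *Cxcl12* cohort kidneys, and KO and control overlapped in both, with log2 differences of 0.17 (SE 0.23, adjusted p = 0.786) and 0.14 (SE 0.17, adjusted p = 0.665). No member had all 10 kidneys of one cohort above or below all 8 of the other, beside 0.157% of genes for above and 0.126% for below.

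The epoxygenase *Cyp2j5* (ENSMUSG00000052520, chromosome 4, 96628773 to 96664154) was among the steadiest abundant members. It had 673, 581, 415, 537 and 538 CPM in *Cxcl12* KO, 589, 612 and 669.6 in *Cxcl12* control, 689, 645, 516, 551 and 466 in *Myc* KO and 609, 672, 477, 757 and 448 in *Myc* control kidneys. The *Cxcl12* controls lay within the span of the KO kidneys, and the *Myc* groups overlapped almost fully. The log2 difference was -0.19 (SE 0.13, adjusted p = 0.57) and -0.03 (SE 0.16, adjusted p = 0.926). Over the 6 *Cyp2j* genes tested, 3 had lower and 3 higher estimates in the *Cxcl12* cohort, and 2 had lower and 4 higher in the *Myc* cohort. *Cyp2c23*, the other main epoxygenase of mouse kidney, had 6.43 to 15.4 CPM over all kidneys, with differences of -0.13 (SE 0.14, adjusted p = 0.737) and 0.27 (SE 0.18, adjusted p = 0.381).

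*Cyp2a5* (ENSMUSG00000005547, chromosome 7, 26835305 to 26843548) had 111, 283, 95.2, 114 and 121 CPM in *Cxcl12* KO and 94.8, 147 and 284 in control kidneys, and 119.7, 79.1, 102, 86.0 and 34.9 in *Myc* KO and 116, 79.7, 79.6, 117 and 99.0 in control kidneys. A single kidney in each *Cxcl12* group stood far above the rest, at 283 CPM in KO and 284 CPM in control. *Cyp2a4* (ENSMUSG00000074254, chromosome 7, 26307169 to 26315088) had 81.3 ± 28.0 CPM (SD, n = 5) in *Cxcl12* KO and 76.8 ± 37.0 (n = 3) in control kidneys, and 93.5 ± 50.5 (n = 5) in *Myc* KO and 93.3 ± 32.2 (n = 5) in control kidneys. Log2 differences were -0.28 (SE 0.39, adjusted p = 0.791) and -0.20 (SE 0.26, adjusted p = 0.671) for *Cyp2a5*, and 0.08 (SE 0.32, adjusted p = 0.937) and 0.02 (SE 0.37, adjusted p = 0.984) for *Cyp2a4*.

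The 2 *Cyp2a* genes are near copies, and their promoters show it. The windows from 250 bases before to 50 bases after the start (RefSeq, GRCm38.p6) were equal at 294 of 299 bases (98.3%) with a shift of 1 base. They are printed here with the promoters of *Cyp4b1* and *Cyp2e1*, the pair of most abundant members, which were equal at 90 of 295 bases (30.5%). Capitals mark the TATA box letters TATAAA on the given strand and the nuclear receptor half-site AGGTCA on either strand.
Cyp2a4 (chr7:26306942-26307241, plus strand): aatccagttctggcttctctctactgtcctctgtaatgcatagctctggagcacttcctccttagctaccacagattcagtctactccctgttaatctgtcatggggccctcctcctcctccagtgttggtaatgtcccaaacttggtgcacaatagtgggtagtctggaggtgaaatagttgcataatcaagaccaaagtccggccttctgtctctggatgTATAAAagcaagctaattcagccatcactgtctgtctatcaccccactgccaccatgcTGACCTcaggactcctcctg
Cyp2a5 (chr7:26835089-26835388, plus strand): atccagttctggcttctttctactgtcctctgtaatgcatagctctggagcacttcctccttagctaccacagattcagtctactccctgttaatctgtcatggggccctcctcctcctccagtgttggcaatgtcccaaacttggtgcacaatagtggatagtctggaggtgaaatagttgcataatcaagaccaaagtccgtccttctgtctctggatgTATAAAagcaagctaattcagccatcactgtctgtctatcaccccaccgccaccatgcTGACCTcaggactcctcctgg
Cyp4b1 (chr4:115647672-115647971, minus strand): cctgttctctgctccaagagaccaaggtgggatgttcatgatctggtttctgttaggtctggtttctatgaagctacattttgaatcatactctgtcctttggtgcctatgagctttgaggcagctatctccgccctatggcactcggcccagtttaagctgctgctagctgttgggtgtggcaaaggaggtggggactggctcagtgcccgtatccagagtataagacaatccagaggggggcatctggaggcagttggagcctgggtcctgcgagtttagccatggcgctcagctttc
Cyp2e1 (chr7:140763569-140763868, plus strand): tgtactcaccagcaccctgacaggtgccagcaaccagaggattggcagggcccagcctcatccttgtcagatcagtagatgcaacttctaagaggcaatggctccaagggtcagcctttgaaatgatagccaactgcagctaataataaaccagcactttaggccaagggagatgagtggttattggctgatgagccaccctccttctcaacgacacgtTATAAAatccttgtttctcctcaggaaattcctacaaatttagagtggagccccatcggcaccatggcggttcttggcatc
Both *Cyp2a* windows hold the TATA letters and the half-site, *Cyp2e1* holds the TATA letters only, and *Cyp4b1* holds neither. In both *Cyp2a* windows the half-site lies within the 50 bases after the start, not upstream of it.

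Of the 41 members, 30 had such a promoter window in the RefSeq table of 27025. The TATA letters were in 5 of them (16.7%, against 8.88% of all promoters) and the half-site letters, which nuclear receptors such as PPARα use in pairs, in 6 (20% against 16.0%). The AhR core letters GCGTG, on either strand, were in 11 (36.7% against 32.5%), among them the AhR-induced *Cyp1a1* and *Cyp1b1*. The E-box letters CACGTG, to which MYC and its partners can bind, were in 2 members, *Cyp2j6* and *Cyp4v3* (6.67% against 7.24%). In the *Myc* cohort these had log2 differences of 0.09 (SE 0.08, adjusted p = 0.545) and 0.28 (SE 0.21, adjusted p = 0.444). The D-box letters TTATGTAA, on either strand, were in 0 members and in 0.955% of all promoters. Such matches describe letters, not binding.

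The *Cyp2d* genes, relatives of the human drug enzyme CYP2D, had higher estimates in all 4 tested members in *Myc* KO kidneys (median 0.42), against 2 lower and 2 higher in the *Cxcl12* cohort. The *Myc* estimate was 0.61 for *Cyp2d9* (SE 0.51, adjusted p = 0.507) and only 0.06 for *Cyp2d22* (SE 0.08, adjusted p = 0.714). *Cyp2d26* (ENSMUSG00000022445, chromosome 15, 82790101 to 82794294), the most abundant of them, had 77.5, 66.0, 69.3, 87.9 and 70.3 CPM in *Myc* KO and 72.2, 54.4, 63.9, 66.2 and 60.7 in control kidneys, with all 5 KO kidneys above the control mean and overlapping groups. The log2 difference was 0.24 (SE 0.09, unadjusted p = 0.0241, adjusted p = 0.171), between 0.17 and 0.37 over 19 alternatives. In the *Cxcl12* cohort it had 74.5, 75.9, 85.5, 67.2 and 101 CPM in KO and 120.0, 86.6 and 84.4 in control kidneys, a difference of -0.27 (SE 0.15, adjusted p = 0.471).

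*Cyp2d12*, a rarer gene of the same cluster, had 19.2, 12.8, 7.57, 8.74 and 9.27 CPM in *Myc* KO and 19.7, 3.69, 6.13, 3.50 and 3.71 in control kidneys. Here 4 of 5 controls lay below every KO kidney, while *Myc* control 1 lay above all of them. The log2 difference was 0.64 (SE 0.46, adjusted p = 0.431) with all kidneys, and 1.42 (SE 0.29, adjusted p = 0.0395) without *Myc* control 1. Its adjusted p ranged from 0.0395 to 0.689 over 19 alternatives, and the gene is named because of these values. *Cyp2d12* shares 15.8% of its 31-base windows with other genes.

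**Figure D3:**
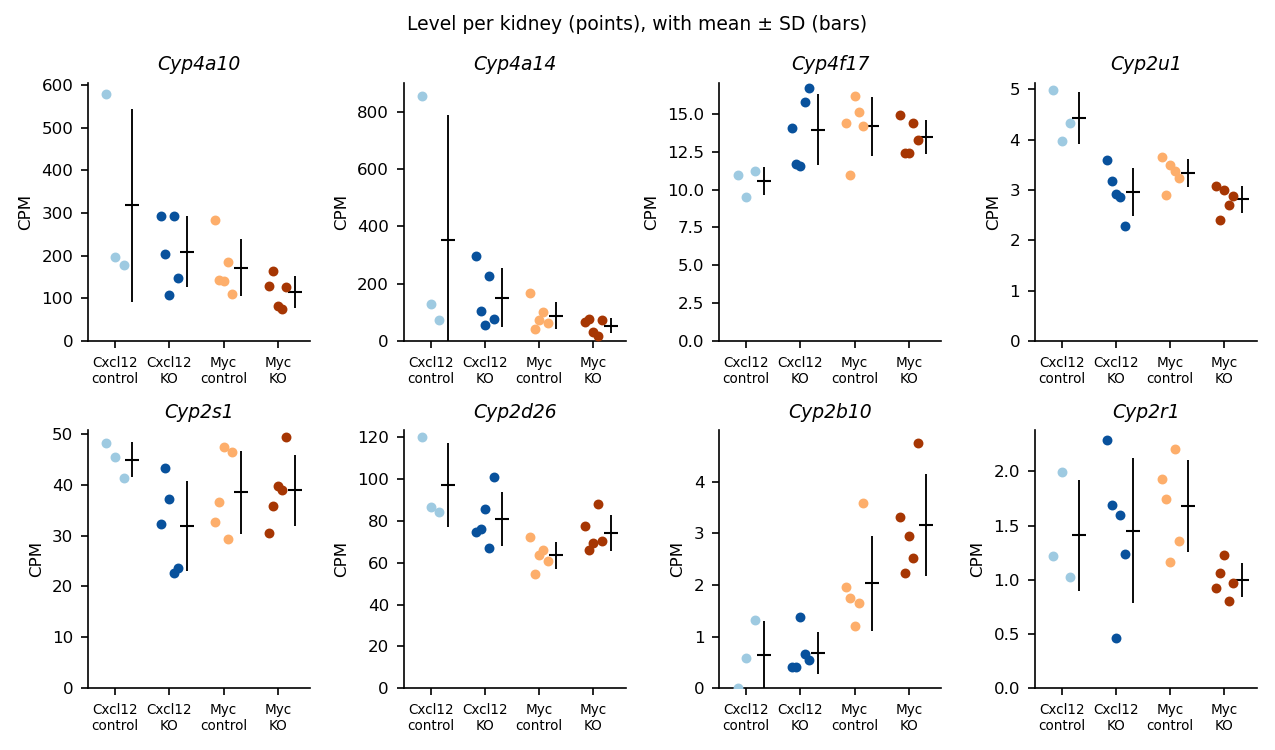
CPM of 8 P450 genes in every kidney of the 4 groups, each on its own axis from 0, with points for kidneys and bars for the mean ± SD. In the *Cxcl12* cohort *Cyp2u1* lies below and *Cyp4f17* above all controls, *Cxcl12* control 1 stands far above the rest for *Cyp4a10* and *Cyp4a14*, and the other groups of a cohort overlap.

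*Cyp2u1*, *Cyp2s1*, *Cyp2r1* and *Cyp2b10* gave the smallest p-values of the less abundant family 2 genes. *Cyp2u1* (ENSMUSG00000027983, chromosome 3, 131288441 to 131303227), a fatty acid hydroxylase, had 3.59, 3.18, 2.92, 2.86 and 2.29 CPM in *Cxcl12* KO and 4.99, 3.98 and 4.33 in control kidneys. These values rest on 37 to 83 reads in KO and 72 to 90 in control kidneys. Every KO kidney lay below every control, and the log2 difference was -0.58 (SE 0.19, unadjusted p = 0.0106, adjusted p = 0.245). In the *Myc* cohort it had 3.09, 2.4, 2.99, 2.71 and 2.88 CPM in KO and 3.66, 2.91, 3.49, 3.37 and 3.24 in control kidneys, with overlap, and a difference of -0.23 (SE 0.14, adjusted p = 0.342). Among the shallower kidneys alone the *Cxcl12* difference was -0.72 (adjusted p = 0.184), and over 17 alternatives it lay between -0.72 and -0.46. An antisense gene, *4930534D22Rik*, overlaps 10.5% of its exons, and reads that fall on both genes were set aside as ambiguous in the counting.

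*Cyp2s1* (ENSMUSG00000040703, chromosome 7, 25802475 to 25816913), a dioxin-inducible enzyme of epithelia, had 32.3, 43.3, 37.2, 22.7 and 23.5 CPM in *Cxcl12* KO and 48.1, 45.4 and 41.2 in control kidneys. All 5 KO kidneys were below the control mean, and 1 of them lay within the control range. The difference was -0.50 (SE 0.19, unadjusted p = 0.0236, adjusted p = 0.315), between -0.69 and -0.27 over 17 alternatives, and 0.03 (SE 0.15, adjusted p = 0.927) in the *Myc* cohort. *Cyp2r1* (ENSMUSG00000030670, chromosome 7, 114549682 to 114562972), a vitamin D hydroxylase, had 0.927, 1.06, 1.22, 0.8004 and 0.974 CPM in *Myc* KO and 1.93, 1.75, 1.16, 2.21 and 1.35 in control kidneys. All 5 KO kidneys lay below the control mean, and the groups overlapped only at the lowest control. *Cyp2r1* had few reads, 12 to 27 in these KO and 23 to 49 in these control kidneys. Its difference of -0.72 (SE 0.23, unadjusted p = 0.00914, adjusted p = 0.12) had the smallest adjusted p of any member and lay between -0.90 and -0.60 over 19 alternatives. In the *Cxcl12* cohort it was 0.07 (SE 0.41, adjusted p = 0.961).

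*Cyp2b10* (ENSMUSG00000030483, chromosome 7, 25897620 to 25926624), which phenobarbital induces through the receptor CAR, had 3.32, 2.23, 2.95, 2.52 and 4.75 CPM in *Myc* KO and 1.97, 1.75, 1.20, 1.66 and 3.59 in control kidneys. KO kidneys all lay above the control mean, yet the highest control exceeded 4 of them, and the difference was 0.67 (SE 0.30, unadjusted p = 0.0433, adjusted p = 0.217). With the shallower kidneys alone it was 0.21 (adjusted p = 0.742), and over 19 alternatives it lay between 0.21 and 0.97. *Cxcl12* cohort kidneys had 0 to 1.38 CPM of *Cyp2b10*, with a difference of 0.05 (SE 0.75, adjusted p = 0.986).

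In the small families, *Cyp1b1*, which oxidises estradiol and polycyclic hydrocarbons, had 79.4, 100.3, 110.4, 109 and 137 CPM in *Myc* KO and 100.3, 77.6, 120.0, 66.2 and 97.7 in control kidneys, and 76.6 ± 13.5 CPM (SD, n = 5) in *Cxcl12* KO and 73.4 ± 1.68 (n = 3) in control kidneys. Groups overlapped, and the differences were 0.06 (SE 0.14, adjusted p = 0.894) for *Cxcl12* and 0.23 (SE 0.16, adjusted p = 0.41) for *Myc*. *Cyp3a13*, of the drug- and steroid-oxidising family 3, had 2.92, 2.80, 3.61, 2.15 and 6.24 CPM in *Cxcl12* KO and 3.33, 1.08 and 2.59 in control kidneys, with a difference of 0.59 (SE 0.40, adjusted p = 0.557). *Cyp20a1* ranged from 31.2 to 42.9 CPM over all kidneys, with differences of 0.11 (SE 0.10, adjusted p = 0.656) and -0.06 (SE 0.08, adjusted p = 0.673).

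Of the sterol hydroxylases, the mitochondrial *Cyp27a1*, which acts on cholesterol and bile acid precursors, was the most abundant. It had 28.8, 27.3, 26.0, 29.0 and 38.8 CPM in *Cxcl12* KO, 27.5, 34.3 and 37.6 in *Cxcl12* control, 34.2, 33.3, 26.9, 35.3 and 26.4 in *Myc* KO and 38.5, 33.8, 27.8, 40.7 and 26.5 in *Myc* control kidneys, with overlap in both cohorts. The differences were -0.15 (SE 0.14, adjusted p = 0.69) and -0.09 (SE 0.14, adjusted p = 0.741). *Cyp39a1*, an oxysterol hydroxylase, had 8.04, 7.76, 11.8, 9.36 and 12.7 CPM in *Myc* KO and 9.75, 6.53, 8.25, 6.56 and 8.77 in control kidneys, a difference of 0.34 (SE 0.16, adjusted p = 0.251), and 0.12 (SE 0.23, adjusted p = 0.858) in the *Cxcl12* cohort. *Cyp46a1*, the cholesterol hydroxylase known from neurons, stayed between 0.307 and 1.34 CPM, and its differences were -0.30 (SE 0.34, adjusted p = 0.737) and 0.04 (SE 0.32, adjusted p = 0.954).

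The KO effect of a member was compared between the cohorts by an interaction term over all 18 kidneys. Of 38 members tested, 0 passed the adjusted threshold, against 0.0692% of 15903 genes (11 genes), with DESeq2 and limma voom also calling 0 members. At an unadjusted p under 0.05 there were 2 members (5.26%, against 11.4% of all genes). For *Cyp2d26* the *Myc* effect exceeded the *Cxcl12* effect by 0.50 on the log2 scale (SE 0.18, unadjusted p = 0.0125, adjusted p = 0.264). For *Cyp4f17* the difference of effects was -0.46 (SE 0.18, unadjusted p = 0.0209, adjusted p = 0.318). Among the 36 members tested in both cohorts, 12 had higher and 10 lower estimates in both, so that 61.1% had 1 direction, beside 60.8% of the 14727 genes tested in both.

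No gene that serves or steers P450 enzymes passed the adjusted threshold in either cohort. Of 20 electron donors, heme genes and epoxide hydrolases, 13 had lower and 7 higher estimates in *Cxcl12* KO kidneys (median -0.04, smallest adjusted p = 0.220), and 17 lower and 3 higher in *Myc* KO kidneys (median -0.11, smallest adjusted p = 0.0957). The share of lower estimates over all genes tested was 49.8% and 50.1%. *Por* had log2 differences of 0.14 (adjusted p = 0.8) and 0.08 (adjusted p = 0.714). Of the receptors and factors known to regulate P450 genes, 15 of 22 had lower estimates in the *Cxcl12* cohort (median -0.16) and 9 of 21 in the *Myc* cohort (median 0.08). *Hlf*, a circadian factor that binds the D-box and is named because of its values, had -1.18 (SE 0.18, adjusted p = 0.0648) after *Cxcl12* loss and 0.38 (SE 0.13, adjusted p = 0.123) after *Myc* loss, a difference of effects of 1.56 (SE 0.23, adjusted p = 0.0135). The aryl hydrocarbon receptor *Ahr* had 0.18 (adjusted p = 0.516) and 0.25 (adjusted p = 0.351), *Ppara* -0.30 (adjusted p = 0.471) and -0.12 (adjusted p = 0.648), and the tubular factor *Hnf4a* -0.43 (adjusted p = 0.221) and -0.11 (adjusted p = 0.690). Of 4 AhR target genes, 1 had a lower and 3 a higher estimate in the *Cxcl12* cohort, and 2 and 2 in the *Myc* cohort.

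Of 8 tested P450 genes outside the member rule, 6 had lower and 2 higher estimates in the *Cxcl12* cohort (median -0.20), and 3 lower and 5 higher in the *Myc* cohort (median 0.07). *Cyp4a12a*, an androgen-dependent fatty acid hydroxylase, had -0.06 (adjusted p = 0.973) and -0.04 (adjusted p = 0.950). *Cyp51*, of cholesterol synthesis, had 0.05 (adjusted p = 0.924) and 0.07 (adjusted p = 0.760). Among phase II genes, which conjugate P450 products, 27 of 38 had lower estimates in *Cxcl12* KO kidneys (median -0.23), beside 49.8% of all genes. In *Myc* KO kidneys 29 of 36 phase II genes did (median -0.21), beside 50.1% of all genes. Of the phase II genes, *Gstp1*, a glutathione transferase named because it was the only one called, fell by 0.65 on the log2 scale in *Myc* KO kidneys (SE 0.15, adjusted p = 0.0497).

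Summed cell type markers overlapped between the *Cxcl12* groups for some lists and not for others. None of the markers given passed the adjusted threshold. Of all genes tested in the *Cxcl12* cohort, 4.75% lay above all controls in KO kidneys and 4.78% below. No such share was computed for sums. The 7 markers of the early proximal tubule, where many P450 genes are expressed, all had lower estimates in *Cxcl12* KO kidneys (smallest adjusted p = 0.132), and their summed level was 3789 to 4297 CPM in KO and 4592 to 5255 in control kidneys, without overlap. Of 4 injured tubule markers 1 had a lower and 3 a higher estimate, and they summed to 2536 to 3131 CPM in KO and 1607 to 2407 in control kidneys. In the *Myc* cohort the early proximal markers summed to 3347 to 5053 CPM in KO and 3582 to 4424 in control kidneys, with 2 of 7 lower and 5 higher, and injured tubule markers to 2792 to 3216 and 2552 to 3302, with 2 lower and 2 higher. Of 5 late proximal (S3) markers 4 had lower estimates in *Cxcl12* KO kidneys (median -0.09; sums 311 to 522 CPM in KO and 276 to 668 in control) and 1 in *Myc* KO kidneys (median 0.14; 353 to 639 and 287 to 577). All 4 endothelial markers had higher estimates in both cohorts, with sums of 407 to 551 CPM in *Cxcl12* KO and 403 to 429 in control kidneys, and of 538 to 764 in *Myc* KO and 393 to 679 in control kidneys. Of 6 leukocyte markers tested, 4 had higher estimates in *Cxcl12* KO and 5 in *Myc* KO kidneys. Leukocyte markers summed to 68.3 to 147 CPM in *Cxcl12* KO and 58.2 to 62.4 in control kidneys, and to 165 to 260.5 in *Myc* KO and 93.9 to 234 in control kidneys. All 4 fat markers had lower estimates in *Cxcl12* KO and higher ones in *Myc* KO kidneys, with *Adipoq* between 0 and 207 reads, and they summed to 3.84 to 57.0 CPM in *Cxcl12* KO and 22.4 to 54.8 in control kidneys, and to 2.51 to 84.2 in *Myc* KO and 10.6 to 48.5 in control kidneys. The part of these cells in the P450 estimates was not tested.

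Some pairs of P450 genes also varied together between kidneys of a group. For the 27 members with a mean of at least 5 CPM, correlations of log2 CPM were computed over the 18 kidneys after the group means were taken away, with p-values from 100000 permutations within groups, adjusted over the 351 pairs. By Pearson's r, 32 pairs passed an adjusted p of 0.05, of which 28 were positive and 4 negative, and 24 of them also passed by Spearman's rho. The median r over all pairs was 0.05, and the share of passing pairs among other genes was not computed. The pairs named here were chosen after their r was seen. Some pairs of larger r are not described, such as *Cyp2j11* and *Cyp7b1* (r = 0.833).

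*Cyp4a10* and *Cyp4a14* had the highest correlation (r = 0.947, rho = 0.92, adjusted permutation p = 0.00468 and 0.00491), which was 0.922 without the 2 kidneys farthest from the median of *Cyp4a10*. It was 0.950 within the 12 shallower and 0.929 within the 6 other kidneys. In contrast, the near copies *Cyp2a4* and *Cyp2a5* had r = 0.591 and rho = 0.492 (adjusted permutation p = 0.144 and 0.249). *Cyp2j5* and *Cyp2j11*, of the *Cyp2j* cluster, had r = 0.843 and rho = 0.878 (adjusted permutation p = 0.00913 and 0.00491), with r = 0.912 without the 2 farthest kidneys. It was 0.837 within the shallower and 0.864 within the other kidneys.

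**Figure D4:**
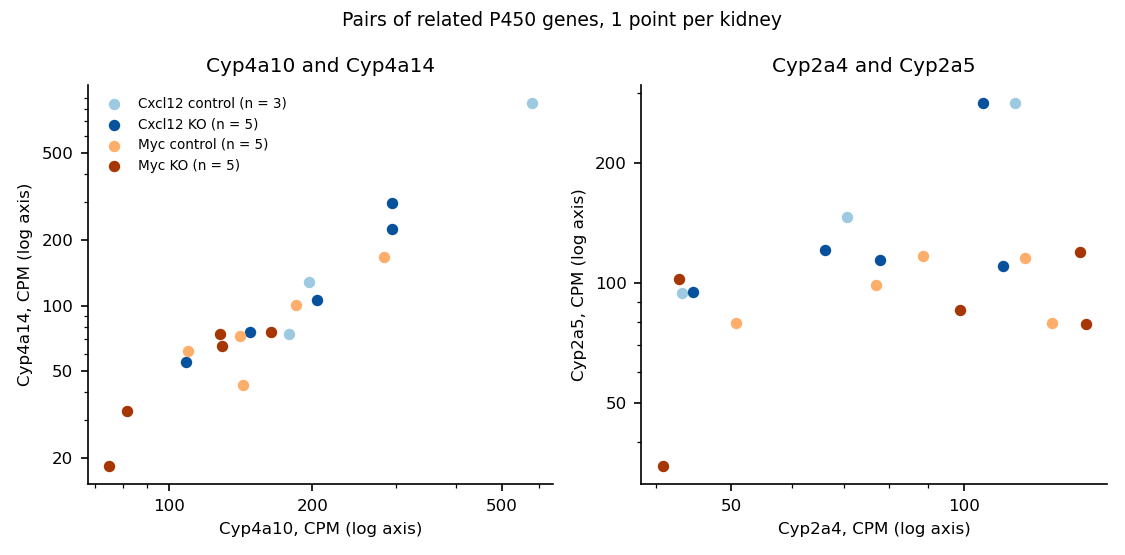
CPM of *Cyp4a10* against *Cyp4a14* and of *Cyp2a4* against *Cyp2a5* on log axes, with 1 point per kidney coloured by group. The first pair lies close to a line across all groups (r = 0.947 after group means are taken away) and the second pair spreads more (r = 0.591).

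*Cyp4b1* and *Cyp2e1*, which lie on different chromosomes, had r = 0.822 and rho = 0.860 (adjusted permutation p = 0.0101 and 0.00491). Without the 2 farthest kidneys r was 0.742, and it was 0.815 within the shallower and 0.857 within the other kidneys. All 4 negative pairs involved *Cyp2s1*, *Cyp1b1* or *Cyp20a1* with *Cyp27a1* or *Cyp4b1*. *Cyp27a1* and *Cyp2s1* had r = -0.769 and rho = -0.796 (adjusted permutation p = 0.0108 and 0.00852), with -0.708 without the 2 farthest kidneys, -0.732 within the shallower and -0.745 within the other kidneys. *Cyp4b1* and *Cyp20a1* had r = -0.672 and rho = -0.806 (adjusted permutation p = 0.0480 and 0.0127), with -0.552 without the 2 farthest, -0.743 within the shallower and -0.0532 within the other 6 kidneys, so that r was near 0 in the deeper kidneys.

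**Figure D5:**
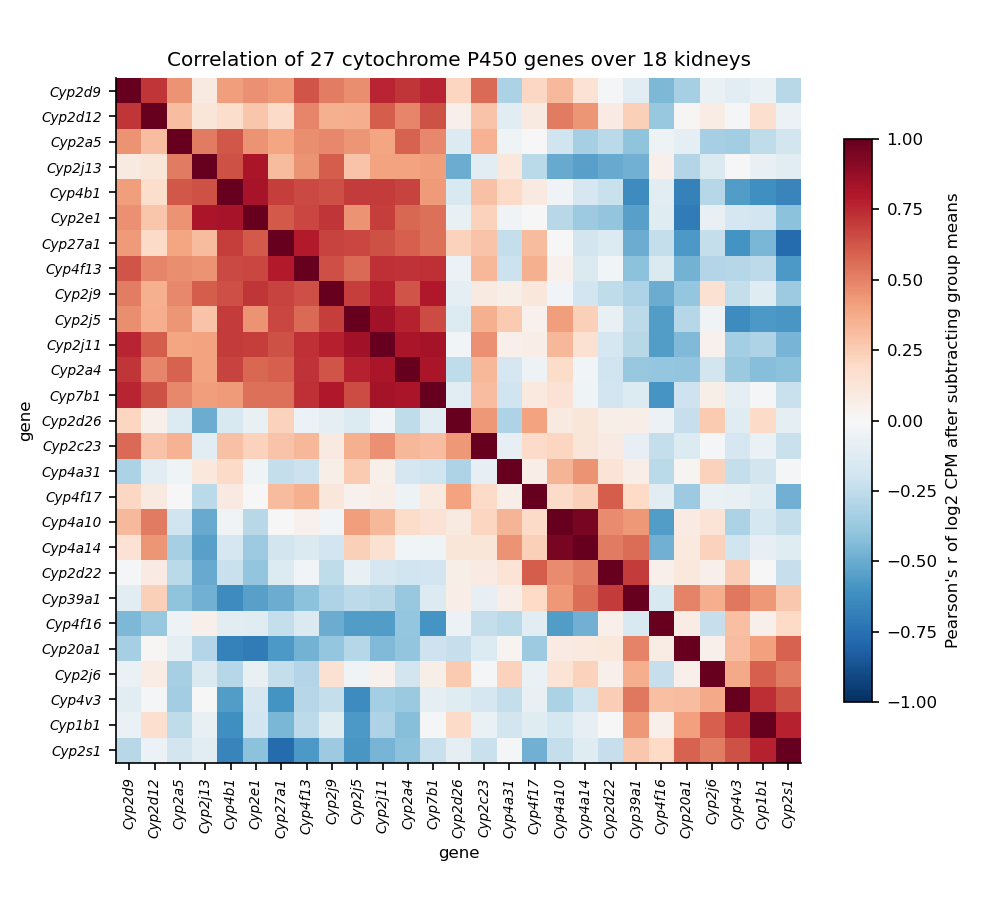
Pearson's r between the 27 P450 genes with a mean of at least 5 CPM, from log2 CPM over 18 kidneys after group means were taken away, with genes ordered by clustering and colour running from -1 to 1. *Cyp4a10* pairs with *Cyp4a14* (r = 0.947), and *Cyp2s1* and *Cyp1b1* lie apart from *Cyp4b1* (r = -0.658 and -0.613).

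The members lie on 11 chromosomes, with 12 on chromosome 4 and 8 on chromosome 7. With gaps of at most 500000 bp, 26 members fell into 6 clusters and 15 stood alone. Chromosome 4 holds the 7 *Cyp2j* members (96027534 to 96664154) and, apart from them, *Cyp4a14*, *Cyp4a10*, *Cyp4a31*, *Cyp4a32* and *Cyp4b1* (115486200 to 115647723). The 4 *Cyp2d* members lie on chromosome 15 (82370527 to 82794294) and 4 *Cyp4f* members on chromosome 17 (32506050 to 32947402). Pairs within a cluster passed the adjusted correlation threshold in 5 of 26 cases (19.2%), and all other pairs in 27 of 325 (8.31%). Pairs that share a gene or sequence are not independent, so this contrast has no test.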

How the data were processed

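RNA was extracted from whole kidneys after injury, 1 kidney sample per mouse, and sequenced. Per the labels' processing notes, the authors trimmed reads with Trimmomatic 0.32 and aligned and counted them with STAR 2.4.0 on GRCm38. The deposited values are raw counts of reads per gene in every kidney, not normalized. The column that ignores the strand was used, and 4 summary lines per file were left out. Reads that map to several places of the genome are not in these counts, which lowers the counts of near copies. Per kidney, 16.6% to 18.6% of reads were of that kind.

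Gene IDs were matched to GENCODE mouse release 21 (45143 matched, 563 not). Each cohort was fitted by edgeR 4.0.16 (R 4.3.3) with its default filter on low counts, TMM scaling, the quasi-likelihood test and Benjamini-Hochberg adjustment over all genes at 0.05, and the difference of the KO effects by an interaction term over 18 kidneys. Standard errors were derived from the estimate and its F statistic. CPM per kb divides by exon length. The fits were tested on simulated counts. DESeq2 1.42.0 and limma 3.58.1 (voom) were alternatives, with other scaling and filters, the strand-specific columns summed, a term for or removal of the deeper kidneys, a replicate block and the removal of each kidney. The study's batch adjustment was not applied, since its batches are not given in the sources used here. Correlations used log2 CPM with a prior count of 2, Python 3.11.15, numpy 2.4.6, pandas 2.3.3 and scipy 1.17.1, and figures matplotlib 3.10.9. Promoter windows are from RefSeq (GRCm38.p6).

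Members and gene lists were chosen with earlier results of these data known. Named members were, in each cohort, the 3 with the smallest p in each direction, the 8 with the highest level per kb, those next to the read limit and those that stand for a role. Other genes were named where their adjusted p passed in either cohort, with *Por*, *Ahr*, *Ppara*, *Hnf4a*, *Cyp4a12a* and *Cyp51* in any case. Genes named for their values are marked as such in the text, and the remaining members of a cluster or family named beside these were chosen after their values were seen. The labels do not say that replicate numbers pair kidneys of KO and control mice.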

Additional observations from a re-analysis of the deposited data

Results flagged for a closer look

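In 7 of 63 groups of 5 kidneys, for the members named, 1 kidney stood apart from the other 4 by Dixon's test (gap over range above 0.71), where chance flags about 1 in 20 groups. Without *Cyp2d12*, which was named because of its values without the kidney that stood apart, these were 6 of 60. In *Cxcl12* KO kidneys, *Cyp4b1* was at 1927 CPM in replicate 5, against 1621 to 1636 in the other 4, and *Cyp27a1* was at 38.8 CPM in the same kidney, against 26.0 to 29.0. *Cyp2a5* was at 283 CPM in *Cxcl12* KO replicate 2, against 95.2 to 121. *Cyp1b1* was at 53.0 CPM in *Cxcl12* KO replicate 4, against 78.6 to 86.1, and *Cyp2b10* at 1.38 CPM in replicate 3, against 0.404 to 0.661. In the *Myc* cohort, *Cyp4a31* was at 33.2 CPM in KO replicate 4, against 111 to 135, and *Cyp2d12* at 19.7 CPM in control replicate 1, against 3.50 to 6.13. The 3 *Cxcl12* controls are too few for this test, which therefore does not cover *Cyp4a10* and *Cyp4a14* in control replicate 1.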

How the results depend on the processing

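No P450 gene was called in the *Cxcl12* cohort under any alternative run. In the *Myc* cohort, leaving out 1 kidney gave 0 to 1 members called, the 1 being *Cyp2d12* without *Myc* control 1. With only the shallower kidneys, 1 member differed between the cohorts, again *Cyp2d12* (difference of effects 2.35, SE 0.35, adjusted p = 0.0191), and the cause was not tested. Among all genes, the counts called differed by more than 1.5 times between settings. The *Cxcl12* cohort gave 0 by edgeR, 355 by DESeq2, 214 without a filter, 80 with only the shallower kidneys and 123 with a term for the deeper ones. The *Myc* cohort gave 246 by edgeR, 1139 by DESeq2, 8 with only the shallower kidneys, 954 with the term and 21 to 877 when 1 kidney was left out. The difference of effects gave 11 by edgeR, 314 by DESeq2 and 3 by limma voom.

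Of the estimates of named members and their summaries, 358 kept direction and side of the threshold under an alternative and 20 changed sign; when 1 kidney was left out these were 342 and 35. With only the shallower kidneys the *Cxcl12* estimates became -0.28 for *Cyp2a4*, -0.052 for *Cyp1b1*, -0.024 for *Cyp39a1*, -0.32 for *Cyp2r1* and -0.44 for *Cyp2d12*. A term for the deeper kidneys gave -0.28, -0.046, -0.017, -0.32 and -0.43 in the same order. With only the shallower kidneys the *Myc* estimates became 0.029 for *Cyp4b1*, 0.022 for *Cyp2j5*, 0.041 for *Cyp27a1*, -0.077 for *Cyp2s1*, 0.062 for *Cyp4f17* and -0.23 for *Cyp46a1*. *Cyp2a4* in the *Myc* cohort turned to -0.11 by limma voom and -0.16 with the term. The causes were not tested.

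Leaving out 1 kidney moved 34 of 42 estimates of named members by over 1.5 times, and 16 of these changed sign. Among the latter it moved *Cxcl12* estimates between -0.12 and 0.31 for *Cyp4b1*, -0.073 and 0.39 for *Cyp2e1*, -0.90 and 0.16 for *Cyp4a10*, -0.67 and 0.25 for *Cyp2a5*, -1.71 and 0.57 for *Cyp4a14*, -0.20 and 0.50 for *Cyp2a4*, -0.052 and 0.33 for *Cyp39a1*, -0.54 and 1.11 for *Cyp2b10*, -0.14 and 0.40 for *Cyp2r1* and -0.073 and 0.31 for *Cyp2d12*. It moved *Myc* estimates between -0.27 and 0.029 for *Cyp4b1*, -0.019 and 0.25 for *Cyp2e1*, -0.12 and 0.073 for *Cyp2j5*, -0.19 and 0.21 for *Cyp2a4*, -0.065 and 0.11 for *Cyp2s1* and -0.15 and 0.18 for *Cyp46a1*. The member median lay between -0.12 and 0.05 in the *Cxcl12* and -0.02 and 0.13 in the *Myc* cohort.

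The replicate numbers were not taken to pair kidneys, since the labels do not say so and not every equal-numbered pair had a correlation of deviations above 0.1. Kidneys of equal number had a mean correlation of deviations of 0.0677 over 3 pairs in the *Cxcl12* cohort (lowest -0.0349) and 0.0554 over 5 pairs in the *Myc* cohort (lowest -0.156), against -0.0169 and -0.0119 for kidneys of different number, and 2 of 3 and 1 of 5 correlated best with their own number. With the replicate block 0 members were called in either cohort (all genes 0 and 18), and the estimates turned to -0.025 for *Cyp2r1* in the *Cxcl12* and -0.10 for *Cyp2a4* in the *Myc* cohort.

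Depth limits the rare members. Of the 41, 24 had at least 100 reads in every kidney and 17 did not, *Cyp2u1*, *Cyp2r1* and *Cyp2b10* among the latter. A p-value over the threshold does not show that a gene did not differ. For the 17 members that share over 10% of their 31-base windows with other genes, the unique counts rest on the remaining sequence.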
